A study of Mus musculus with 6 samples.

Results

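Among 12139 cells sorted from mouse lymph nodes, 62 held 10 or more UMIs (unique molecular identifiers, 1 per captured RNA molecule) of S100a8 and S100a9 together. These cells were neutrophil-like by several of the markers read, although not in every cell. All but 1 of the 62 held a Csf3r UMI, 47 held both Csf3r and Cxcr2, 41 held a UMI of Retnlg, Ngp, Camp or Lcn2, and 50 carried 20 or more counts of the Ly-6G antibody. Csf3r was also held by 38.5% of cells with 0 UMIs of S100a8 and S100a9, and Cxcr2 by 3.03% of them. Ngp, Camp and Ly6g mRNA were held by only 11, 9 and 13 of the 62. The remaining 12 carried under 20 Ly-6G counts, and 10 of those 12 held Csf1r and 2 held Cxcr2. The cells were chosen by the sum of S100a8 and S100a9 UMIs in the cell, so their S100a8 and S100a9 levels are given as a description. The cells they are set against are the 10930 cells with 0 UMIs of both genes, and 1147 cells with 1 to 9 UMIs stood between.

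The experiment measured mRNA and surface proteins of single cells together (CITE-seq). CD169Tom mice (labelled Cd169Cre/+.Tdtomatofl/fl, on C57BL/6J and over 6 weeks of age) carry Cre in the Siglec1 gene, which encodes CD169, so the tdTomato reporter (TOM) records past as well as present Siglec1 expression and is inherited at cell division. CD11b hi TOM+ cells came from the lymph nodes, which the methods give as inguinal, of 2 unimmunized mice and of 2 mice 9 days after immunization with hen egg lysozyme (HEL). For HEL immunization the methods describe HEL joined to an ovalbumin peptide in Sigma Adjuvant System. It followed transfer of HEL-binding (SWHEL) B cells and OT-II T cells by 1 day. The methods do not restate this protocol for the sequenced mice. Each mouse had 1 hashtag antibody, and the pooled cells were split over 2 captures. The gated cells numbered 22 of 2828 cells in unimmunized mouse 1, 3 of 537 in unimmunized mouse 2, 28 of 4052 in immunized mouse 1 and 9 of 4722 in immunized mouse 2. They gave 185369, 5758, 195459 and 129089 UMIs in that order, so unimmunized mouse 2 rests on 3 shallow cells. The captures shared 621 barcode sequences, whose 1242 barcodes (37 of them with 10 or more S100a8 and S100a9 UMIs) were left out, and the hashtag rule removed 87 of the 149 barcodes above the limit that reached it. Immunized mouse 2 stood apart in the Ly-6G antibody, and the antibody differences are given with and without it.

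Neutrophils are short-lived granulocytes that leave the bone marrow with their granules already filled. S100a8 and S100a9 encode the subunits of calprotectin, a calcium and zinc binding protein that fills much of the neutrophil cytosol and is also made by monocytes. Granule genes are switched on in sequence during maturation. Azurophil granule genes such as Mpo come first, then specific granule genes such as Ngp, Camp and Ltf, then gelatinase granule genes such as Mmp9. Ly-6G and Cxcr2 mark the later cells.

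Ly-6G is a close relative of Ly-6C, a protein of monocytes and neutrophils, and the 2 antibodies were told apart only by the DNA tag each one carried. The tags are shown because the protein results turn on them. Each has 15 bases, and capitals mark the 11 positions at which they differ.
Ly-6G: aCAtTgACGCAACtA
Ly-6C: aAGtCgTGAGGCAtG

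S100a8 (ENSMUSG00000056054, chr3:90668978-90670035, plus strand, GRCm38) and S100a9 (ENSMUSG00000056071, chr3:90692632-90695721, minus strand) are neighbours on chromosome 3. Because most gated cells held both genes and a few held S100a8 alone, the outer 100 bases of both promoters are shown. They begin 250 bases before the RefSeq gene start (GRCm38.p6). Capitals mark matches, on either strand, to TTGCNNAA (bound by C/EBP factors) or GAGGAAGT (bound by PU.1).
S100a8, chr3:90668821-90668920, plus strand: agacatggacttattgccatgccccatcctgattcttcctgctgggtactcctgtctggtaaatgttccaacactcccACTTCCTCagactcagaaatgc
S100a9, chr3:90695872-90695971, minus strand: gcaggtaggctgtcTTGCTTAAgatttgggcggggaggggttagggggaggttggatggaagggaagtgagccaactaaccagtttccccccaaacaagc
The S100a8 promoter held 1 GAGGAAGT and 0 TTGCNNAA over its 300 bases, and the S100a9 promoter held 0 and 1. Of 32851 promoters of that length, 10.8% held TTGCNNAA and 3.20% held GAGGAAGT. A looser C/EBP word, TTNNGNAA, was held by 40.7% of promoters, once by that of S100a8 and 2 times by that of S100a9, where 1 of its matches overlapped the TTGCNNAA. These matches describe letters only.

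The gated cells spanned a wide range of S100a8 and S100a9. The summed UMIs per cell ran from 10 to 81 (median) to 3132 in unimmunized mouse 1, from 22 to 27 to 94 in unimmunized mouse 2, from 10 to 132.5 to 6961 in immunized mouse 1 and from 10 to 171 to 2960 in immunized mouse 2. All 4 mice overlapped. At the top, 46.7% of all UMIs of a cell came from these 2 genes, and 16 cells gave them 10% or more, while in 22 cells they were under 1%. A few cells carried most of the transcripts: the highest cell of each mouse gave 39.7%, 65.7%, 30.3% and 35.9% of that mouse's gated S100a8 and S100a9 UMIs.

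The 2 genes were read in nearly equal numbers over the gated cells of each mouse. S100a9 gave 1.13, 0.723, 1.09 and 1.17 UMIs for each S100a8 UMI in unimmunized mouse 1, unimmunized mouse 2, immunized mouse 1 and immunized mouse 2. At the low end this balance broke. S100a8 without any S100a9 UMI was held by 9 cells, none in unimmunized mouse 1, 1 in unimmunized mouse 2 and 4 in each immunized mouse. Their S100a8 counts lay between 10 and 36, with a median of 13.

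**Figure D1:**
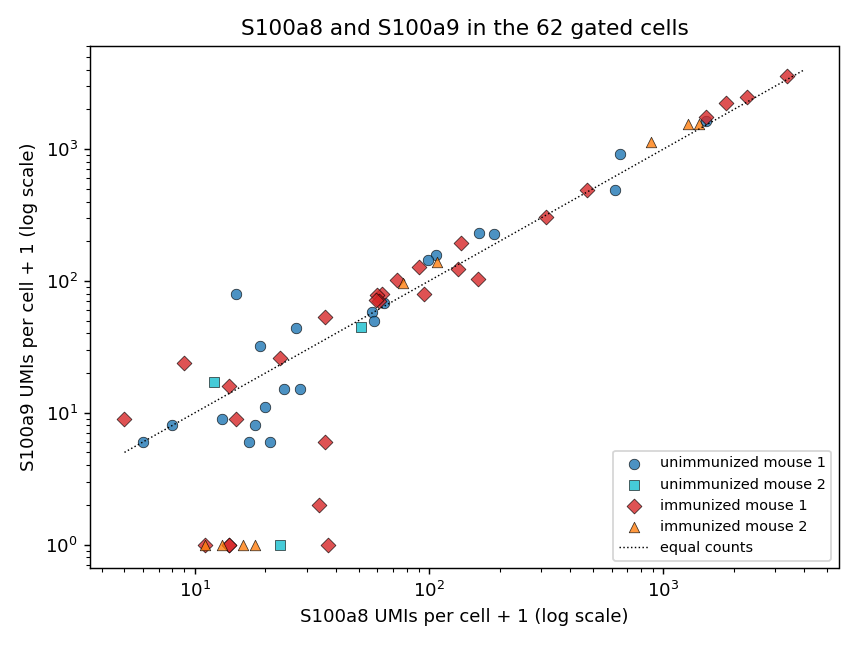
S100a8 UMIs (x axis) against S100a9 UMIs (y axis) in each of the 62 gated cells, both with 1 added and on log scales, coloured by mouse. Most cells lie close to the dotted line of equal counts, and 9 cells sit on the bottom edge with 0 S100a9 UMIs.

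The cells with S100a8 alone differed from the others in what else they held. All 9 had a Csf1r UMI (Csf1r encodes the receptor for M-CSF, the growth factor of monocytes and macrophages), 7 had Ccr2, the chemokine receptor of classical monocytes, and 1 had Cxcr2, the neutrophil receptor for CXC chemokines. Among the 53 cells with S100a9, 22 held Csf1r, 17 held Ccr2 and 46 held Cxcr2. The Ly-6G antibody had a median of 1 count in the 9 cells and 79 in the 53. Of the 9, the cell of unimmunized mouse 2 had 156 Ly-6G counts and the other 8 had 3 or fewer. The 9 cells were deeper, with a median of 10538 UMIs against 3426. This division was made after the values were seen, and it has no test.

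The same division was made in cells just below the gate. Of the 32 cells with 5 to 9 UMIs, 26 had S100a8 alone, 19 of them from immunized mouse 2. Their Ly-6G counts ran from 0 to 7, all 26 held Csf1r and 22 held Ccr2. The 6 that also held S100a9 had Ly-6G counts of 0 to 211, with a median of 113.5, and 2 of them held Cxcr2 and 5 held Csf1r. Over all cells with 1 to 9 UMIs the Ly-6G median was 1 count in both the 697 cells without S100a9 and the 450 with it. Csf1r was found in 88.4% and 73.3% of these cells, but immunized mouse 2 gave 459 of the 697 and 177 of the 450. Within mice the Csf1r shares without and with S100a9 were 47.5% and 45.5% in unimmunized mouse 1, 58.3% and 60% in unimmunized mouse 2, 83.6% and 73.5% in immunized mouse 1 and 96.3% and 91.5% in immunized mouse 2.

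Granule genes were held by most gated cells, in amounts that differed widely. Retnlg, which encodes a resistin-like protein of neutrophils, was found in 14 of 22, 2 of 3, 12 of 28 and 5 of 9 gated cells of unimmunized mouse 1, unimmunized mouse 2, immunized mouse 1 and immunized mouse 2, or 33 of 62 (53.2%, 95% exact interval 40.1% to 66.0%). Lcn2, the iron-siderophore binding lipocalin, was found in 8, 1, 17 and 5 cells of the same mice, 31 in all. Ngp, a neutrophilic granule protein, was found in 3, 0, 6 and 2 cells, and Camp, which encodes cathelicidin, in 3, 0, 5 and 1. Intervals here cover counting error only.

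Any of the 4 genes was found in 66.1% of gated cells. It was found in 173 of the 10930 cells with 0 UMIs (1.58%) and in 2 of 295 cells with B cell markers (0.678%), a lineage that should lack these genes. Median depths were 4806, 9738.5 and 4706 UMIs, so the pooled B cell marker cells were read about as deeply as the pooled gated cells, although within mice the medians differed either way (7603.5 UMIs against 4355.5 in gated cells of immunized mouse 1, and 5392.5 against 9692 in immunized mouse 2). The B cell marker cells overlapped the other classes, with 283 among the 0-UMI cells and 1 among the gated cells. Without the gated one, 1 of 294 (0.340%) held a granule gene UMI and 14.3% held Csf1r. With every cell thinned to 1000 UMIs, which left out 11 of the 0-UMI cells and no gated cell, the shares were 48.4%, 0.229% and 0%. The share was above both backgrounds in each of the 4 mice, from 55.6% to 100%.

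Csf1r behaved differently. It was held by 7 of 22, 1 of 3, 16 of 28 and 7 of 9 gated cells, 50% in all (95% exact interval 37.0% to 63.0%), below the 68.6% of 0-UMI cells and above the 14.6% of B cell marker cells. In 0-UMI cells of the same mice the shares were 39.1%, 50%, 69.5% and 89.2%, each above that of the gated cells. Per mouse its level in gated cells was 194, 174, 266 and 418 CPM (UMIs of the gene per 1000000 UMIs of the library). In 0-UMI cells it was 217, 289, 396 and 448 CPM, again higher within each mouse. The gated value of unimmunized mouse 2 rests on 1 UMI. After thinning, Csf1r was found in 17.7% of gated cells, 26.9% of 0-UMI cells and 3.05% of B cell marker cells. As the mean of the 4 mice, the share of gated cells with Csf1r was 50% ± 21.8 (SD, n = 4) unthinned. Thinning draws UMIs at random, and with so few cells the draw itself mattered. The mean of the 4 mice was 23.4% ± 12 in 1 draw and 13% ± 14.8 in another. The pooled shares above came from a draw other than that of the 23.4%. The expected share at 1000 UMIs, computed exactly from each cell's counts without a draw, was 17.6% ± 8.36 (SD, n = 4) in gated cells and 24.2% ± 8.34 in 0-UMI cells.

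Csf1r and granule transcripts were often in the same cell. Both were found in 22 gated cells, Csf1r alone in 9, granule genes alone in 19 and neither in 12. Depth moved with these classes. The cells with both had a median of 10592.5 UMIs, those with Csf1r alone 11205, those with granule genes alone 3438 and those with neither 1965.5. The 12 cells with neither nevertheless had Ly-6G counts of 28 to 203, with a median of 83. Among gated cells with 20 or more Ly-6G counts, Csf1r was found in 8 of the 31 with under 5000 UMIs and in 13 of the 19 with more, and Ccr2 in 4 and 10. The part of cell doublets in this was not tested.

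**Figure D2:**
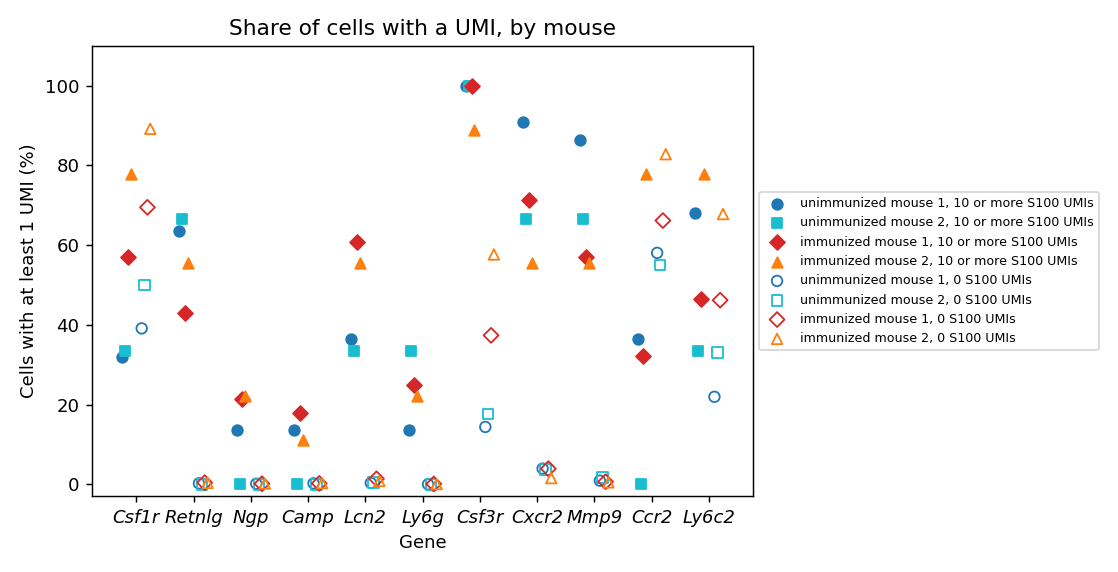
Share of cells with at least 1 UMI (y axis, %) for 11 genes (x axis), with 1 point per mouse, filled for cells with 10 or more S100a8 and S100a9 UMIs and open for cells with 0. Retnlg, Ngp, Camp, Lcn2, Ly6g, Cxcr2 and Mmp9 lie near 0 in the open points. The Csf1r shares of the 2 kinds of cell overlap across mice, but within each mouse the gated cells have the lower share.

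The Ly-6G antibody is an independent readout, since the gate used mRNA alone. Gated cells had median Ly-6G counts of 94.5 (range 13 to 203), 111 (45 to 156), 62.5 (1 to 211) and 4 (0 to 60) in unimmunized mouse 1, unimmunized mouse 2, immunized mouse 1 and immunized mouse 2. The median of 0-UMI cells was 1 in each mouse. The first 3 mice were far above their own 0-UMI cells, while the gated cells of immunized mouse 2 were split, 4 with 20 or more counts and 5 below.

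On the centred log ratio scale (CLR, the natural log of count plus 1 less its mean over the 6 antibodies of the cell), Ly-6G was higher in gated than in 0-UMI cells by 2.73, 2.98, 2.66 and 0.855 in the same mice, a mean of 2.31 ± 0.977 (SD, n = 4). It was higher in 4 of 4 mice, with an exact sign-flip p of 0.13, two-sided, the smallest that 4 mice allow, and 0.188 after adjustment over the 6 antibodies. Without immunized mouse 2 the mean was 2.79 ± 0.165 (n = 3, exact p = 0.25, again the smallest possible). Against only those 0-UMI cells that held Csf1r the difference was 2.37 ± 1.01 (n = 4, exact p = 0.13, adjusted 0.25), and 2.87 ± 0.183 without immunized mouse 2 (n = 3, exact p = 0.25).

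CD169, CD68 and CD11c, proteins of macrophages and dendritic cells, had lower CLR values in gated cells in 4 of 4 mice. The differences were -0.641 ± 0.382, -0.553 ± 0.244 and -0.856 ± 0.356 (SD, n = 4, exact p = 0.13 each, adjusted 0.188). The macrophage protein F4/80 differed by -0.391 ± 0.341 and was higher in 1 of 4 mice (n = 4, exact p = 0.25, adjusted 0.3). Ly-6C differed by 0.136 ± 0.415, higher in 2 of 4 (n = 4, exact p = 0.5). Without immunized mouse 2 the differences were -0.784 ± 0.310 for CD169, -0.636 ± 0.218 for CD68, -1.01 ± 0.231 for CD11c and -0.560 ± 0.0582 for F4/80, each lower in 3 of 3 mice (n = 3, exact p = 0.25 each, the smallest possible), and 0.198 ± 0.485 for Ly-6C. The mouse in which F4/80 was higher was immunized mouse 2, by 0.114. A CLR value is relative, so a high Ly-6G count lowers the other 5 in the same cell. In raw counts CD169 had a median of 35.5 in gated cells against 43 in 0-UMI cells of unimmunized mouse 1, and 55 against 26, 2 against 4 and 3 against 3 in the others, with no single direction. CD68 had raw medians of 11, 10, 1 and 2 against 8, 6, 3 and 2, and CD11c 13, 21, 7.5 and 20 against 16, 18, 17 and 24, so neither was lower in all 4 mice in raw counts. Ly-6C had raw medians of 198.5, 156, 175.5 and 192 in gated cells against 42, 47, 66 and 116 in 0-UMI cells, higher in 4 of 4 mice.

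**Figure D3:**
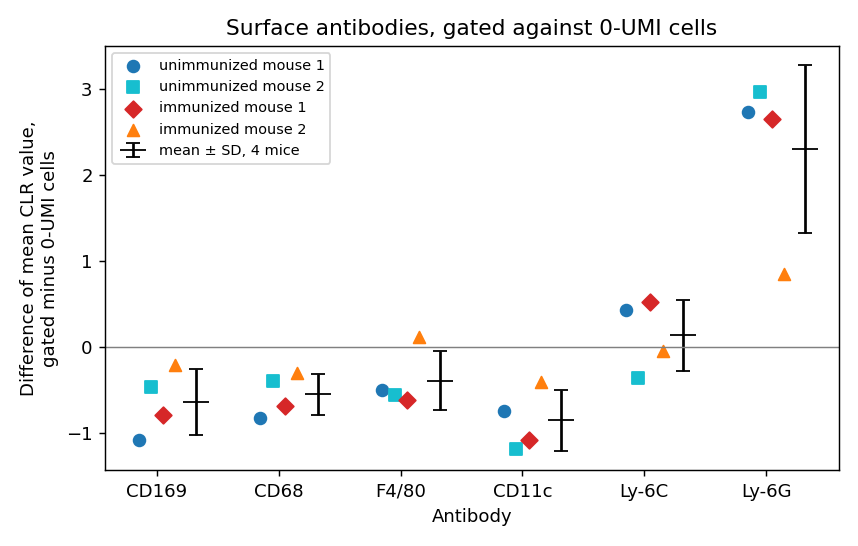
Difference of the mean CLR value between gated and 0-UMI cells (y axis) for the 6 antibodies (x axis), with 1 point per mouse and the mean ± SD of the 4 mice in black. Ly-6G is above 0 in each mouse, lowest at 0.855 in immunized mouse 2, and CD169, CD68 and CD11c are below 0 in each on this relative scale.

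Within the gate, Ly-6G was compared between cells with and without granule transcripts in the 2 mice with at least 5 cells on each side. Cells with a granule gene UMI had a CLR value lower by 0.246 in unimmunized mouse 1 and higher by 0.171 in immunized mouse 1 (mean -0.0375 ± 0.295, n = 2, exact p = 1). In immunized mouse 2, with 5 cells against 4, the median was 37 Ly-6G counts with a granule gene UMI and 0 without, a CLR difference of 2.44 that the limit of 5 cells kept out of the mean. Cells with a Csf1r UMI had a lower Ly-6G value in both mice on the CLR scale, by -0.883 and -0.760 (mean -0.822 ± 0.0867, n = 2, exact p = 0.5, the smallest that 2 mice allow). On the log2(count + 1) scale the 2 mice went opposite ways, by 0.30 and -0.69 (mean -0.196 ± 0.704, n = 2, exact p = 1). The raw Ly-6G medians with and without Csf1r were 107 and 90 in unimmunized mouse 1 and 56.5 and 67.5 in immunized mouse 1. The mice with too few cells on a side went opposite ways on the CLR scale, by 1.87 in unimmunized mouse 2 (1 cell against 2) and by -2.80 in immunized mouse 2 (7 against 2).

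The Ly-6G antibody did not rise steadily with S100a8 and S100a9. Its median count was 1 in the 10 cells with 10 to 19 UMIs, 98 in the 17 with 20 to 49, 67 in the 4 with 50 to 99, 73 in the 21 with 100 up to 1000 and 26 in the 10 with 1000 or more. Mice entered these classes unequally, with 4 of the 10 lowest cells from immunized mouse 2 and 0 of the next 17. Without that mouse the medians were 46.5 in 6 cells, 98 in 17, 67 in 4, 82 in 19 and 25 in 7. Csf1r was found in 9 of 10 cells of the lowest class and 1 of 10 of the highest. Cxcr2 went the other way, with 3 of 10 and 9 of 10. Without immunized mouse 2 the counts were 5 of 6 and 0 of 7 for Csf1r, and 3 of 6 and 6 of 7 for Cxcr2. Just inside the gate, the 3 cells with 10 UMIs had 0, 3 and 90 Ly-6G counts, and just outside it the 3 cells with 9 UMIs had 0, 0 and 211. Both low and high Ly-6G counts were thus found on either side of the gate.

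**Figure D4:**
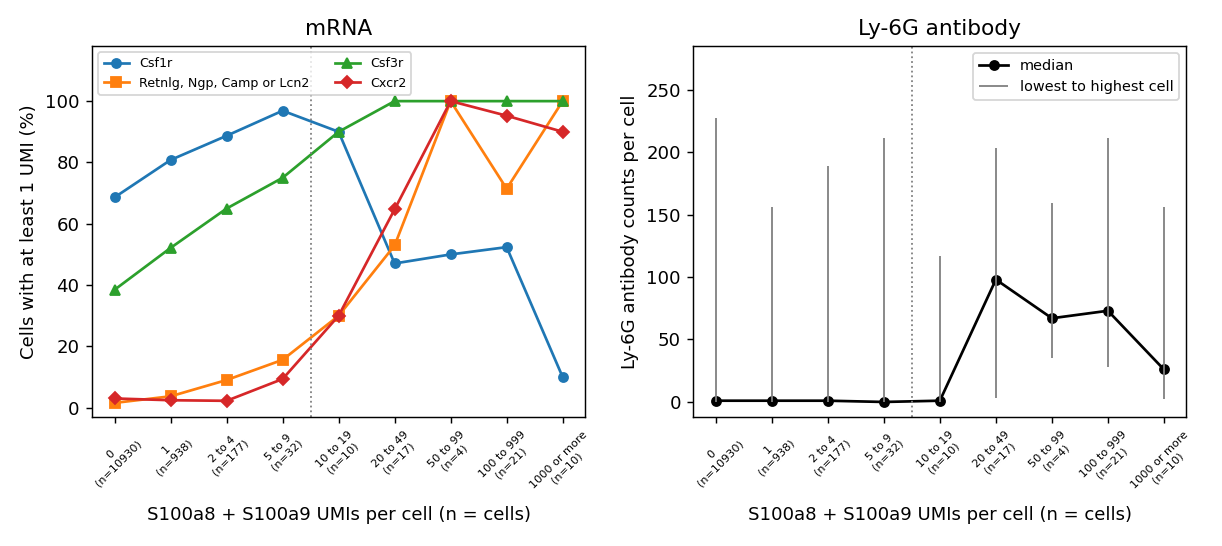
Left, share of cells (y axis, %) with a UMI of Csf1r, of any of Retnlg, Ngp, Camp and Lcn2, of Csf3r and of Cxcr2, by class of S100a8 and S100a9 UMIs per cell (x axis). Right, median Ly-6G antibody count (y axis) with a line from the lowest to the highest cell. The dotted line is the gate, and the Ly-6G median is 1 at 10 to 19 UMIs (46.5 without immunized mouse 2) and 98 at 20 to 49.

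**Figure D5:**
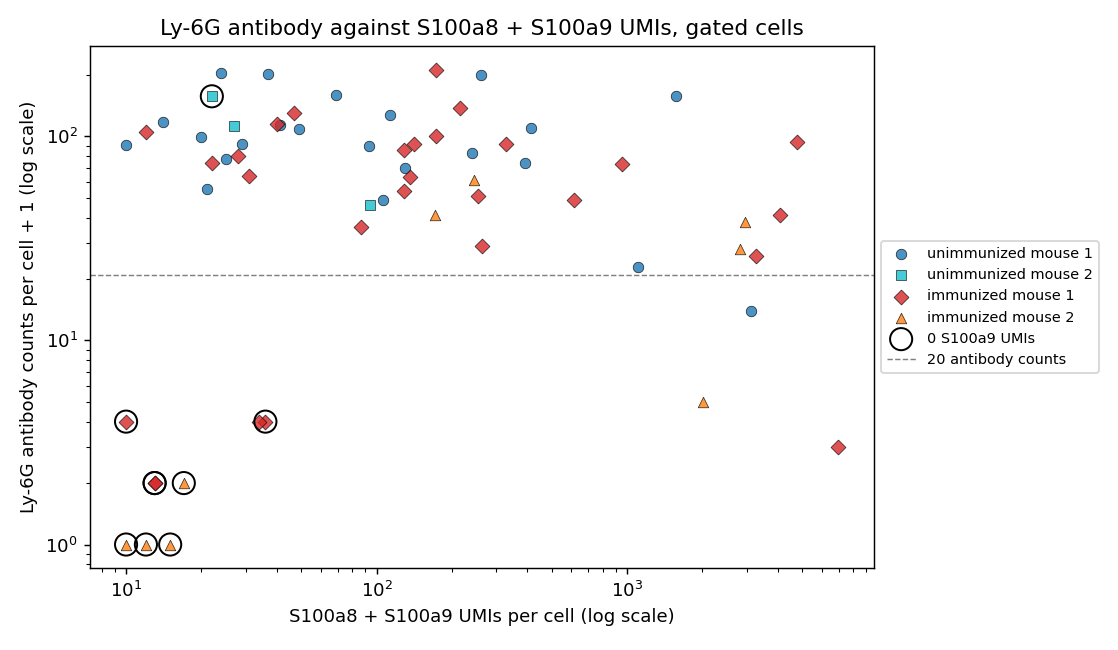
Ly-6G antibody counts with 1 added (y axis, log scale) against S100a8 and S100a9 UMIs (x axis, log scale) for the 62 gated cells, coloured by mouse. Of the 12 cells under the dashed line at 20 counts, 8 are circled for having 0 S100a9 UMIs, and the ringed cell above it is that of unimmunized mouse 2.

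Specific granule transcripts were concentrated in 10 gated cells, with 3 or more UMIs of Ngp, Camp and Ltf (lactoferrin) together. Of these, 3 came from unimmunized mouse 1, 5 from immunized mouse 1 and 2 from immunized mouse 2. Their S100a8 and S100a9 UMIs ran from 958 to 6961 with a median of 3046, against 48 in the other 52. All 10 held Ly6g mRNA, against 3 of the 52, but their Ly-6G antibody median was 32 counts against 77.5. Mmp9, the gelatinase, was found in 10 of 10 against 32 of 52, and Cxcr2 in 9 of 10 against 38 of 52. They were deeper, with a median of 9273.5 UMIs against 3343, and 1 of them held Csf1r. Mki67 and Top2a, genes of dividing cells, were found in 0 of the 10. The azurophil granule genes Mpo and Ctsg had 0 UMIs in all 62 cells, and Elane and Prtn3 were found in 1 and 2 cells. The limit of 3 UMIs was set after the values were seen.

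Over all genes, levels in gated cells were set beside those of 0-UMI cells within each mouse, as CPM of summed counts with a floor of 3 counts. This is a description, because the gate chose the cells. In all 4 mice 55 of 12495 genes (0.44%) were at least 2-fold higher, and 0 were at least 2-fold lower (0%), where the 5758 UMIs of unimmunized mouse 2 set the limit. In the other 3 mice 184 of 14239 genes (1.29%) were at least 2-fold higher and 23 (0.162%) lower. Leaving that mouse out was chosen after the data were seen. In these 3 mice as well, the floor of 3 counts kept genes of low level in 0-UMI cells from being called lower.

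Genes of the granule and mature neutrophil lists were among those with the largest ratios. Beside S100a8 and S100a9, Retnlg was at 1122, 4656 and 2928 CPM in gated cells of unimmunized mouse 1, immunized mouse 1 and immunized mouse 2, and at 0.345, 0.991 and 0.268 CPM in 0-UMI cells. Lcn2 was at 1316, 5428 and 1433 CPM against 0.633, 1.87 and 0.823. Ngp was at 2250, 4640 and 201 CPM and rested on 11 cells. Mmp9 was at 486, 691 and 287 CPM against 2.07, 0.935 and 0.517, in 42 of 62 cells. Il1f9, an IL-36 family cytokine, was found in 31 of 62 cells and 0.0640% of 0-UMI cells. Hdc, the histamine-forming enzyme, was found in 44 cells, Slpi, an inhibitor of neutrophil proteases, in 50, and Ifitm1, an interferon-induced membrane protein, in 46.

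Lists of related genes were described by counts, with the median log2 ratio over the 3 mice (10 CPM added), which was -0.13 over 8057 genes. The specific and gelatinase granule list has 13 genes. Of these, 7 had 3 or more counts in gated or 0-UMI cells of each of the 4 mice. In all 4 mice 3 of the 7 were 2-fold higher, and in the 3 mice 9 of 12, with a median of 5.70. Retnlg and Lcn2, at 0 and 0.552 CPM in 0-UMI cells of unimmunized mouse 2, entered the 7 through gated cells alone. Such genes could only be called higher there, so the counts are a description. Mmp8, the neutrophil collagenase, was at 216, 829 and 519 CPM, and Cd177, a neutrophil surface protein, at 183, 281 and 124. The mature neutrophil list has 14 genes. Of those with enough counts, 9 of 11 were higher in all 4 mice and 12 of 13 in the 3 (median 3.20). Csf3r, the G-CSF receptor, was found in 98.4% of gated cells, 38.5% of 0-UMI cells and 4.41% of B cell marker cells. Cxcr2 was found in 75.8%, 3.03% and 2.03%.

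Further lists, not particular to neutrophils, were described the same way. Some of their genes were also found in many 0-UMI cells (Il1b in 50.3%, Itgam in 47.5%) and others in few (C5ar1 in 10.2%, Cxcl2 in 1.11%). Of 16 adhesion and migration genes, 5 were higher in all 4 mice and 8 in the 3 (median 1.25), among them Itgam, the CD11b chain used in the sort, C5ar1, the receptor for complement C5a, and Fpr2, a formyl peptide receptor. Ccr2, in the same list, was at 464, 450 and 387 CPM against 496, 799 and 678. Of the inflammatory mediators, Il1b, Acod1, which makes itaconate, and the chemokine Cxcl2 were higher in all 4 mice (3 of 9 tested, 3 of 11 in the 3 mice, median 2.33). Il1b was at 2908, 1893 and 1449 CPM against 107, 216 and 514, in 53 gated cells. Cxcl1, Cxcl3 and Il6 had 0 UMIs in gated cells. Of the NADPH oxidase subunits, which make the respiratory burst, 0 of 6 reached 2-fold in all 4 mice or in all of the 3 (median 0.90).

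Cebpb, a transcription factor of granulocytes and monocytes, was 2-fold higher in all 4 mice (1 of 11 in its list, 3 of 12 in the 3 mice with Cebpd and Nr4a1, median 0.56). Cebpe, which drives specific granule genes, was found in 4 cells. In the S100 family, S100a11 joined the 2 gate genes (3 of 10, and 3 of 11 in the 3 mice, median 0.55), while S100a4 was at 1036, 1750 and 225 CPM against 2650, 2752 and 1706. Of the receptors and adaptors for S100A8 and S100A9, 0 of 8 were higher in all 4 mice and Cd14 and Cd33 in the 3 (median 0.52). Of the type I interferon response genes, 0 of 15 were 2-fold higher in every mouse (median 0.44). Ifit1, an RNA-binding antiviral protein, was nevertheless at 232, 281 and 62 CPM against 44.2, 61.9 and 58.8, and Rsad2, which encodes viperin, at 129, 113 and 15.5 against 25.8, 25.1 and 18.3, so both were over 2-fold higher in the first 2 of these mice and not in immunized mouse 2.

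Markers of other cells were also present in the gated cells. The classical monocyte list summed to 4208, 7587 and 4772 CPM in gated cells of the 3 mice against 2828, 6485 and 5854 in 0-UMI cells, with Plac8 its most abundant gene (median 0.00 over 10 genes). Nonclassical monocyte genes summed to 1872, 2164 and 1255 CPM against 938, 805 and 418, led by Pglyrp1, with Nr4a1 and Pglyrp1 higher among 12 (median 0.64). Pglyrp1, a peptidoglycan recognition protein, is also in the specific and gelatinase granule list, and without it the nonclassical sums were 1359, 1105 and 558 CPM against 873, 763 and 410. Lymph node macrophage genes summed to 1856, 916 and 798 CPM against 1716, 2295 and 3409, led by Apoe (median -0.14). Of these, 0 of 11 were 2-fold higher or lower in all 3 mice. C1qa, C1qb, C1qc and Apoe were over 2-fold lower in both immunized mice and not in unimmunized mouse 1. C1qa was at 243, 97.2 and 101 CPM against 165, 410 and 1051. Dendritic cell genes, led by Cd74, summed to 16885, 8242 and 26501 CPM against 18257, 33598 and 41745 (median -0.81), with Cd209a at 0. Of these, 0 of 9 were 2-fold higher or lower in all 3 mice. Cd74 was at 9435, 4651 and 14827 CPM against 10354, 19056 and 23398, so it was over 2-fold lower in immunized mouse 1 alone of the 3. B cell genes summed to 216, 25.6 and 0 CPM against 234, 292 and 57.7, led by Cd79b (0 of 6 at 2-fold in all 3 mice). T and NK cell genes summed to 593, 20.5 and 15.5 against 1576, 331 and 105, led by Nkg7 (0 of 8 in all 3). In these lists a gene of low level in 0-UMI cells could not be called lower, because gated counts were floored at 3. In 0-UMI cells of immunized mouse 2, for example, Flt3 was at 4.25, Xcr1 at 2.62, Marco at 2.85 and Timd4 at 4.21 CPM. The counts of 0 called genes thus do not show that levels were alike. The part of these cells in the levels above was not tested.

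Genes lower in gated cells of the 3 mice were modest in level. Ramp1, a receptor activity modifying protein, was at 48.6, 61.4 and 38.7 CPM against 161, 137 and 110, and was the 1 gene that also reached 100 CPM in each mouse. Chosen after their values were seen, the lectins Mgl2 and Clec10a of dendritic cells and macrophages were found in 1 and 3 gated cells, against 14.7% and 25.1% of 0-UMI cells.

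All cells were sorted as TOM+, so the reporter could not tell the gated cells from the rest. Tomato mRNA was read in 3 of 62 gated cells (4.84%) and 4.75% of 0-UMI cells, against 0.678% of B cell marker cells, and Siglec1 in 11 gated cells (17.7%), 13.6% and 4.41%.

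The comparison of immunized with unimmunized mice asked whether these cells changed at day 9. They made up 0.778% (95% exact interval 0.488 to 1.18), 0.559% (0.115 to 1.62), 0.691% (0.460 to 0.997) and 0.191% (0.0872 to 0.362) of cells in unimmunized mouse 1, unimmunized mouse 2, immunized mouse 1 and immunized mouse 2. The groups overlapped, with means of 0.668% ± 0.155 and 0.441% ± 0.354 (SD, n = 2 each). The difference was -0.227 percentage points (exact permutation p = 0.667, and 2 against 2 mice cannot go below 0.333). Within capture 1 it was -0.441 (exact permutation p = 0.333, n = 2 each) and within capture 2 -0.0165 (p = 1 by the same exact test). The sort fixes which cells could enter these shares.

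No gene passed a Benjamini-Hochberg adjusted p of 0.05 between immunized and unimmunized gated cells in edgeR's quasi-likelihood test (0 of 10089, 0%, with 786 at an unadjusted p under 0.05 and a smallest adjusted p of 0.281). DESeq2 called 16. In libraries simulated at these sizes with a dispersion near the fitted one, edgeR recovered a minority of the large changes that had been set, so the count of 0 does not show that levels were alike. The difference between this change and that of 0-UMI cells was past the threshold for 0 genes (559 unadjusted), and DESeq2 called 1. With the mouse as a block, since gated and 0-UMI libraries share their animal, edgeR called 8 genes, 4 higher and 4 lower. S100a8 and S100a9 together gave 4.26% and 2.48% of gated UMIs in the unimmunized mice and 11.8% and 6.39% in the immunized mice. These are the values that chose the cells, and a few cells carried most of them, so they are given without a test. The log2 differences of Retnlg, 2.40 ± 0.731, and Lcn2, 1.99 ± 0.728, did not pass (SE, edgeR adjusted p = 0.541 each). Csf3r differed by -0.09 ± 0.469 and Cxcr2 by 0.12 ± 0.574 (edgeR adjusted p = 0.971 and 0.970). No list held a gene past the threshold in either direction. The mature neutrophil list had a median log2 change of 0.37 over 13 genes and the specific and gelatinase granule list 0.90 over 12, beside -0.00 over all 10089. Lists of other cells had medians of 1.14 for classical monocyte, -0.10 for nonclassical monocyte, -0.75 for macrophage and -1.51 for dendritic cell genes. B cell and T and NK cell genes had -9.99 and -11.50, where most of the genes had 0 UMIs in gated cells of both immunized mice, so the fitted values are no measure of size. The part of such cells in the comparison was not tested.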

How the data were processed

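CITE-seq data of 4 mice were used, deposited as 3 matrices (genes, hashtags, antibodies) that each pool both captures. The authors made the UMI counts per gene with Cell Ranger 4.0.0 on an mm10 reference, and CITE-seq-count gave the tag counts. All are whole counts, used as deposited. Members and gene lists were chosen with earlier results of these data known.

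Of 18662 barcodes, 17420 had a sequence found in 1 capture only, 16182 of these had hashtag and antibody counts, 15588 had at most 25% mitochondrial UMIs and 12139 had 1 hashtag with at least 80% of hashtag counts and at least 10 counts. Mice are named by hashtag. No doublet caller was run. The hashtag rule removes mixtures of different mice only where the top hashtag holds under 80% of hashtag counts. It does not remove mixtures within 1 mouse. With the limit at 90%, 36 of the 62 gated cells remained. Per mouse, in the order unimmunized 1, unimmunized 2, immunized 1 and immunized 2, they numbered 13, 2, 13 and 8. At 80% they numbered 22, 3, 28 and 9. The 0-UMI cells numbered 2418, 472, 3250 and 3567 at 90%, and 2633, 512, 3708 and 4077 at 80%. The part of mixtures between mice in the gated cells was not tested. B cell marker cells held 10 or more UMIs of Cd79a, Cd79b and Ms4a1. UMIs were summed per mouse and class and fitted with edgeR 4.0.16 (R 4.3.3, TMM, filterByExpr, 8 libraries, Benjamini-Hochberg adjustment). DESeq2 1.42.0 was an alternative. The fit was tested on simulated data, where it recovered most set changes in deep libraries and a minority at the real library sizes with the same dispersion. Libraries of gated and 0-UMI cells share a mouse, with 2 mice a group. The edgeR p-values use a spread estimated over all 8 libraries together, with 4 residual degrees of freedom. These were gated libraries of 3 to 28 cells and 0-UMI libraries of 512 to 4077 cells, so the spread is not that of the gated libraries alone. Antibodies were compared by exact sign-flip tests and shares by exact permutation tests with scipy 1.17.1, with exact Clopper-Pearson intervals. Named genes were the gate genes, list members and, between gated and 0-UMI cells, the 10 genes each way with the most extreme ratio in their least extreme mouse among genes at 100 CPM or more in the higher class. Genome coordinates are from GENCODE M21 and promoters from RefSeq. Not every list member is reported here.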

Additional observations from a re-analysis of the deposited data

Results flagged for a closer look

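The hashtag rule removed many barcodes that passed the S100a8 and S100a9 limit. Of 149 such barcodes with at most 25% mitochondrial UMIs, 87 (58.4%) were removed, against 22.1% of all 15588 barcodes. The 87 had a Ly-6G antibody median of 87 counts, against 72.5 in the 62 kept, and 64.4% held a granule gene UMI against 66.1%. Csf1r was found in 85.1% of them against 50%. They were deeper, with a median of 18737 UMIs against 4806, and their top hashtag held a median of 61.1% of hashtag counts against 91.5%.

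Ly-6G antibody counts of 20 or more were also read in 82 cells with 0 S100a8 and S100a9 UMIs and in 18 with 1 to 9. Of the 82, 61 came from unimmunized mouse 1, 30 held Csf1r, 17 held Csf3r and 6 held Cxcr2. Their summed counts over the 6 antibodies had a median of 366, against 332 in gated cells with as much Ly-6G and 172 in all 0-UMI cells.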

How the results depend on the processing

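The Ly-6G difference between gated and 0-UMI cells stayed above 0 under each alternative run, from 1.90 with a gate at 5 UMIs to 2.79 without immunized mouse 2 on the CLR scale, and was 4.25 on the log2(count + 1) scale. The difference in gated share between immunized and unimmunized mice turned to 0.0105 percentage points with a gate at 5 UMIs and to 0.0227 without immunized mouse 2, from -0.478 to 0.0227 over the mice left out. The share of gated cells with Csf1r, as the mean of the mice, was 13% in 1 thinning draw, 23.4% in another, 17.6% as the exact expected share at 1000 UMIs and 25.8% at 3 or more UMIs. The Ly-6G difference by Csf1r was -0.196 on the log2(count + 1) scale, where the 2 mice went opposite ways, and -1.37 both with a gate at 5 UMIs and at 3 or more Csf1r UMIs. The Ly-6G difference by granule gene UMIs reversed to 0.843 (gate at 5 UMIs), 0.184 (gate at 1000 per 1000000 UMIs), 0.395 (hashtag share of 90%), 0.145 (capture 1), 0.198 (capture 2), 0.195 (3 or more granule UMIs), 0.0794 (a S100a9 UMI required) and 0.171 (without unimmunized mouse 1, -0.246 at the lowest of the mice left out). The cause was not tested.

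Calls between immunized and unimmunized gated cells went from 0 to 6 (capture 2 alone), 16 (DESeq2), 60 (no filter on low counts) and 1 (gated libraries alone), and ranged from 0 to 48 over the mice left out, 48 without immunized mouse 1 and 30 without immunized mouse 2, where a lone mouse is assumed to vary like the rest. For the difference from the change in 0-UMI cells they went to 1 (DESeq2), 24 (no filter) and 8 with the mouse as replicate block, and from 0 to 24 over the mice left out (24 without immunized mouse 1, 21 without immunized mouse 2). The mouse pairs gated and 0-UMI libraries, since both come from 1 animal. Genes 2-fold higher in every mouse numbered 55 to 184 and 2-fold lower 0 to 23 over the mice left out, both highest without unimmunized mouse 2, and 93 were higher without immunized mouse 2. The requirement of a S100a9 UMI, the exact expected share, the leaving out of mice from these 2 counts and of immunized mouse 2 from the antibodies other than Ly-6G, of Pglyrp1 from its list and of the gated cell from the B cell marker cells, and the values within mice of the S100a8 and S100a9 classes, were chosen after seeing the data. The 5758 gated UMIs of unimmunized mouse 2 limit what could be called there.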
